A study of Rattus norvegicus with 6 samples.

Results

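The genes described here are 42 genes of mitochondrial and peroxisomal fatty acid oxidation, measured in rat kidney, in the outer layer called renal cortex. They were chosen by function, as a named list of enzymes, transporters, the receptor PPARalpha and PPAR-responsive genes. All 42 had at least 1 probe, out of 15284 named genes on the array, and all 42 were tested among 34417 items (12269 named genes and 22148 unnamed probes). The animals were 6 male Sprague-Dawley rats (Crl:CD(SD)), bought at 5 weeks of age. Corn oil, the vehicle, was given to 3 of them, and the other 3 received phenolphthalein, a dye once sold as a laxative, at 1000 mg/kg/day. Dosing lasted 4 weeks in both groups. Each rat gave 1 single-colour (Cy3) Agilent array, so that n = 3 per group throughout.

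Long-chain fatty acids are activated to acyl-CoA, carried into mitochondria as carnitine esters and shortened in repeated cycles of dehydrogenation, hydration, oxidation and thiolysis. Peroxisomes shorten very long and branched chains with their own set of enzymes, after alpha-oxidation where a methyl branch blocks the cycle. The nuclear receptor PPARalpha, bound to DNA with a retinoid X receptor, induces many of these genes in fasting. The proximal tubule, which makes up most of the renal cortex, draws much of its energy from fatty acids.

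Values are log2 intensities relative to the 75th percentile of the same array, so that 0 is the 75th percentile. The brightness of a spot depends on its probe, and levels of different genes are therefore not compared. Between 64.8% and 72.1% of probes on an array were well above background, and each of the 42 genes was well above background on all 6 arrays. Proximal tubule markers summed to 3167 to 3206 in vehicle and to 3124 to 3224 in phenolphthalein (linear scale, 20 of 20 listed genes measured), and 8 of them had higher and 12 lower values, with a median difference of -0.08. The summed level of leukocyte markers was 81.8 to 100.2 in vehicle and 58.7 to 70.1 in phenolphthalein (14 of 14 measured), without overlap. Liver markers summed to 77.7 to 115 and to 100.1 to 110 (18 of 20 measured). By gene, 14 of them had higher and 4 lower values, with a median difference of 0.41. Their median SD was 0.65 within vehicle and 0.87 within phenolphthalein, and 0 passed the adjusted threshold (limma). Adipocyte markers summed to 3.18 to 3.81 and to 2.6 to 4.62 (8 of 12), and striated muscle markers to 0.995 to 1.26 and to 1.03 to 1.18 (8 of 10). All vehicle arrays lay on 1 slide and the phenolphthalein arrays on 2 others, so slide and group cannot be told apart. Phenolphthalein replicate 1 was alone on its slide, and replicates 2 and 3 shared the other. Where replicate 1 stands apart below, animal and slide cannot be told apart either.

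Fatty acid oxidation genes stood at much the same level in phenolphthalein-treated and vehicle-treated cortex. No member passed the threshold: 0 of 42 were higher and 0 of 42 lower (limma, adjusted p under 0.05), beside 0% of all items in each direction. The smallest adjusted p among the members was 0.458. By sign alone, 20 members had higher and 22 lower values, beside 45.8% and 54.2% of all items. Their median difference was -0.01, against -0.02 over all items. The difference was smaller than 0.1 log2 units in 32 of the 42, or 76.2%, compared with 45.7% of all items. Animals of a group also lay close together for these genes, with a median SD within groups of 0.10 for the members and 0.15 for all items. The spots of the members were also brighter, with a median of 4.36 against -1.39 for all items. Items of like brightness were not compared, so the smaller differences and SDs cannot be read as particular to these genes.

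At an unadjusted p under 0.05, 1 member was higher, Acot12, and 1 was lower, Ucp2. Among all items 3.91% were higher and 4.96% lower by that rule. Groups did not overlap for 2 members on the higher side, Acot12 and Acaa1a, and for 3 on the lower side, Ucp2, Acot1 and Etfb. The same held for 6.59% and 9.11% of all items, so neither count stood above the background. How large a change these arrays could have missed is given by the 95% interval of each difference (limma). It lay inside a 1.25-fold change either way for 26 members, inside 1.5-fold for 35 and inside 2-fold for 39. The intervals reaching past 2-fold were those of Acsm3, Acox2 and Pdk4. In bulk tissue, a change in the number of cells of a type and a change in RNA per cell cannot be told apart.

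**Figure D1:**
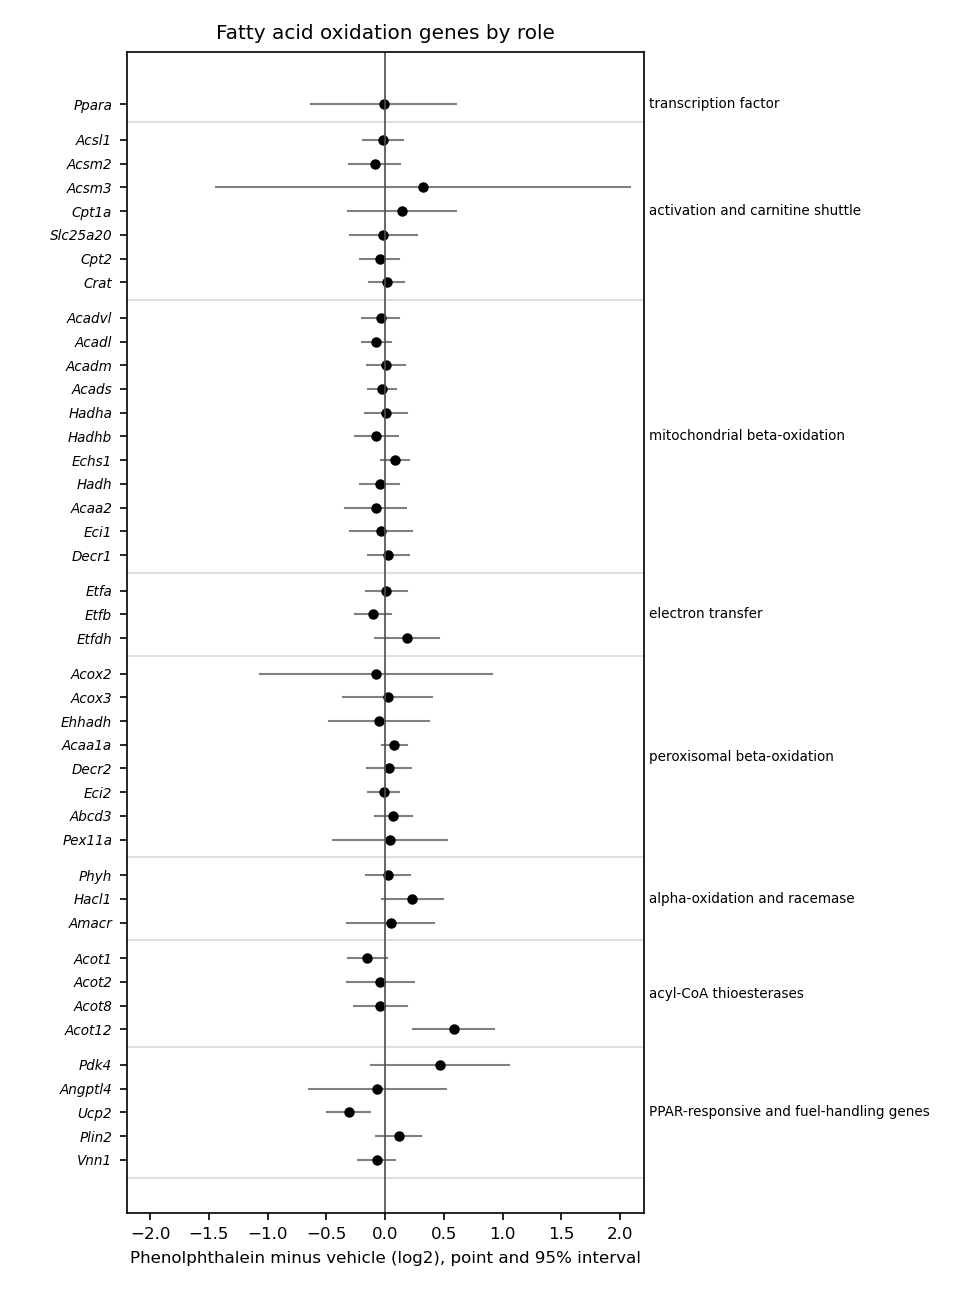
Difference between the phenolphthalein and vehicle means (log2, x axis) for each of the 42 genes, ordered by role, with points for the estimate and lines for the 95% interval of limma. Most points lie within 0.1 of 0, and only the intervals of Acot12 and Ucp2 do not cross 0.

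PPARalpha itself (Ppara) did not differ between the groups beyond the spread between animals. The vehicle animals had values of -0.17, -0.29 and 0.47, and the phenolphthalein animals had 0.16, -0.47 and 0.29. The groups covered nearly the same range, and the difference was -0.01 (95% interval -0.63 to 0.60, limma adjusted p = 0.994). The second probe of Ppara placed the animals in the same order, from -0.51 in phenolphthalein replicate 2 to 0.31 in vehicle replicate 3. The spread is thus seen by both probes.

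Genes of acyl-CoA activation and the carnitine shuttle bring fatty acids to the site of oxidation. Of the 7 members in this role, 3 had higher and 4 lower values, with a median difference of -0.02. Acsl1, the long-chain acyl-CoA synthetase, was at 5.16, 5.27 and 5.28 in vehicle and at 5.15, 5.15 and 5.35 in phenolphthalein. The groups overlapped and differed by -0.02 (SE 0.07, limma adjusted p = 0.958). Cpt1a, the carnitine palmitoyltransferase of the outer mitochondrial membrane and the regulated entry step, was at 2.47, 2.96 and 2.40 in vehicle and at 2.44, 3.04 and 2.78 in phenolphthalein. In each group 1 animal or more lay near 3 and another near 2.4, and the difference was 0.14 (SE 0.19, limma adjusted p = 0.853). Leaving out 1 animal moved it between -0.00033, without phenolphthalein replicate 2, and 0.32, without vehicle replicate 2. Cpt2, which turns the carnitine ester back into acyl-CoA inside the mitochondrion, was at 3.32, 3.38 and 3.38 in vehicle and at 3.31, 3.20 and 3.43 in phenolphthalein. Its phenolphthalein values enclosed those of vehicle, and its interval ran from -0.21 to 0.12. The carnitine-acylcarnitine translocase Slc25a20, the medium-chain synthetase Acsm2 and the carnitine acetyltransferase Crat had values between 3.01 and 3.48, 7.31 and 7.65, and 6.14 and 6.35, and the groups overlapped in each.

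The genes of the mitochondrial beta-oxidation cycle differed little between the groups. Of its 11 members, 4 had higher and 7 lower values, none reached an unadjusted p under 0.05, and the differences ran from -0.08 to 0.08, as did those of the peroxisomal cycle. Acadvl, Acadl, Acadm and Acads are the acyl-CoA dehydrogenases for chains of falling length. Acadvl was at 4.47, 4.50 and 4.44 in vehicle and at 4.41, 4.34 and 4.56 in phenolphthalein. Acadm, the medium-chain enzyme, was at 6.39, 6.5 and 6.34 in vehicle and at 6.53, 6.35 and 6.37 in phenolphthalein. Neither pair of groups separated, with differences of -0.04 for Acadvl (95% interval -0.19 to 0.12) and 0.01 for Acadm (-0.15 to 0.17). Acadl, the long-chain enzyme, was at 6.33, 6.39 and 6.36 in vehicle and at 6.36, 6.28 and 6.21 in phenolphthalein. Phenolphthalein replicate 1 lay among the vehicle animals, and the difference was -0.07 (SE 0.05, limma adjusted p = 0.718).

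Hadha and Hadhb encode the subunits of the trifunctional protein, which carries out the later steps on long chains. Hadha was at 3.20, 3.26 and 3.14 in vehicle and at 3.31, 3.07 and 3.24 in phenolphthalein, a difference of 0.01 (95% interval -0.17 to 0.19). Its other probes gave 0.17 and 0.11, so that all 3 pointed the same way by unequal amounts. Hadhb ranged from 2.64 to 2.86 over the 6 animals. The short-chain hydratase Echs1, the hydroxyacyl-CoA dehydrogenase Hadh and the thiolase Acaa2 ranged from 6.61 to 6.78, from 7.27 to 7.51 and from 5.53 to 5.90. The isomerase Eci1 and the reductase Decr1, needed for unsaturated chains, ranged from 5.92 to 6.33 and from 5.83 to 6.07. In each of these genes, and in Acads (5.64 to 5.75), the groups overlapped.

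**Figure D2:**
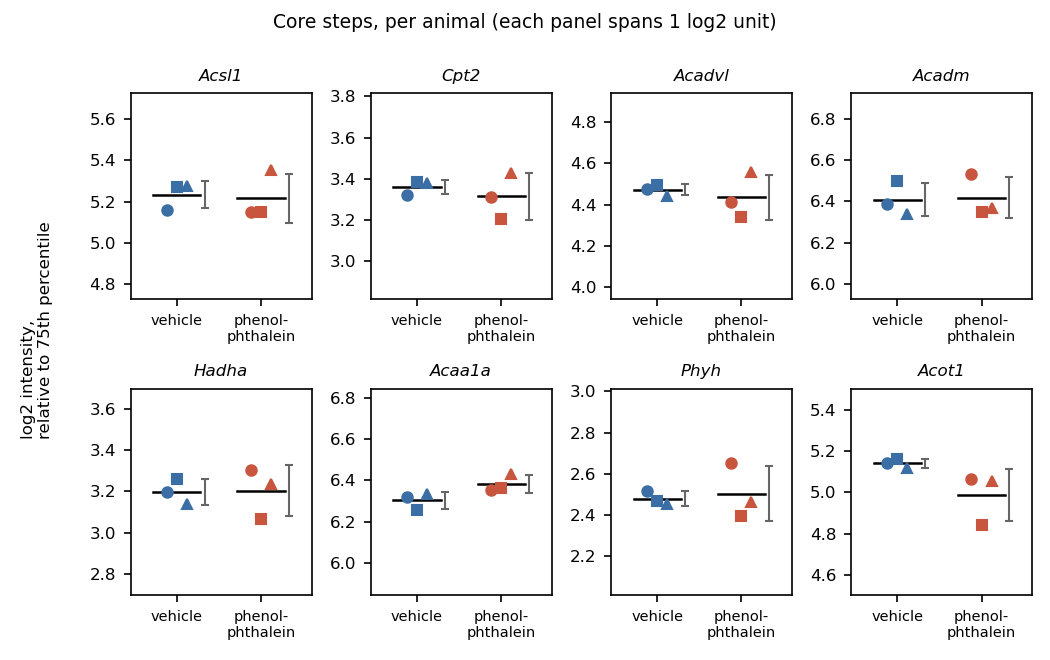
Values of 8 genes of the core steps in each animal (log2 relative to the 75th percentile of the array, y axis, each panel spanning 1 log2 unit). Circles, squares and triangles are replicates 1, 2 and 3, horizontal lines are group means and bars are SDs (n = 3). Points of the groups intermix except in Acaa1a and Acot1, where small gaps separate them.

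Electrons from the acyl-CoA dehydrogenases pass through the flavoprotein ETF (Etfa and Etfb) to its ubiquinone oxidoreductase (Etfdh). Etfb was at 6.38, 6.38 and 6.41 in vehicle and at 6.16, 6.38 and 6.34 in phenolphthalein. The groups did not overlap, but phenolphthalein replicate 2 lay just under the lowest vehicle value, and the difference of -0.10 (SE 0.06) did not pass the test (limma adjusted p = 0.684). It was -0.03 without phenolphthalein replicate 1, and -0.06 with normexp background correction. Etfdh was at 3.21, 3.13 and 2.96 in vehicle and at 3.52, 3.18 and 3.17 in phenolphthalein. Phenolphthalein replicate 1 stood above all others and the other values intermixed, with a difference of 0.19 (SE 0.11, limma adjusted p = 0.672). Without phenolphthalein replicate 1 it was 0.07, and without vehicle replicate 3 it was 0.12. Etfa, which pairs with Etfb in the same protein, ranged from 3.28 to 3.49 with overlapping groups.

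Peroxisomal beta-oxidation genes had 5 higher and 3 lower values among 8 members, with a median difference of 0.03. Acaa1a, the peroxisomal thiolase, was at 6.32, 6.26 and 6.33 in vehicle and at 6.35, 6.36 and 6.43 in phenolphthalein. Its groups did not overlap, yet the gap was narrow and the difference was 0.08 (SE 0.05, limma adjusted p = 0.655), or 1.06-fold. Its other probes differed by 0.10 and 0.07, and in each of them the groups overlapped. Ehhadh, the peroxisomal bifunctional enzyme and a widely used PPARalpha target, was at 2.49, 3.14 and 2.86 in vehicle and at 2.90, 2.52 and 2.91 in phenolphthalein. The vehicle animals covered the whole range of the treated ones, and the difference was -0.05 (95% interval -0.48 to 0.37). The ABC transporter Abcd3 (6.20 to 6.43), the reductase Decr2 (3.10 to 3.38), the isomerase Eci2 (4.66 to 4.78) and the branched-chain oxidase Acox3 (-3.95 to -3.46) overlapped as well.

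Acox2, the peroxisomal oxidase for bile acid intermediates and branched chains, differed more between animals of a group than between groups. It was at -2.10, -2.15 and -2.29 in vehicle and at -1.19, -2.69 and -2.89 in phenolphthalein. Vehicle animals lay together, phenolphthalein replicate 1 lay above them and replicates 2 and 3 below them. The difference was -0.08 (SE 0.42, limma adjusted p = 0.967), and without phenolphthalein replicate 1 it was -0.61 (limma adjusted p = 0.521). Pex11a, a peroxisome membrane protein of peroxisome division, was at 5.02, 5.38 and 5.27 in vehicle and at 5.33, 4.82 and 5.65 in phenolphthalein, so that the treated animals held both the lowest and the highest value. Acox2, Pex11a and, below, Acsm3 were singled out after their values were seen.

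Phytanoyl-CoA hydroxylase (Phyh) and the lyase Hacl1 carry out alpha-oxidation, and the racemase Amacr prepares branched chains for beta-oxidation. All 3 had values higher by 0.02 to 0.23, and none passed the test. Hacl1 was at 3.65, 3.82 and 3.59 in vehicle and at 4.13, 3.75 and 3.88 in phenolphthalein. Phenolphthalein replicate 1 was the highest animal, while replicate 2 lay within the vehicle range. The difference was 0.23 (SE 0.11, limma adjusted p = 0.601), and its other 3 probes gave 0.22, 0.32 and 0.27. Without phenolphthalein replicate 1 the difference was 0.13. Phyh was at 2.52, 2.47 and 2.45 in vehicle and at 2.65, 2.39 and 2.47 in phenolphthalein, with the vehicle values enclosed by the treated ones. Amacr ranged from 4.38 to 5.0 and was highest in phenolphthalein replicate 1.

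Acyl-CoA thioesterases split acyl-CoA into free fatty acid and coenzyme A. Acot12, the cytosolic thioesterase with a preference for acetyl-CoA, had the smallest p of all 42 genes. It was at 0.00, 0.00 and 0.37 in vehicle and at 0.89, 0.48 and 0.75 in phenolphthalein. Every treated animal lay above every vehicle animal, although vehicle replicate 3 and phenolphthalein replicate 2 were only about 0.1 apart. The difference was 0.59 (SE 0.15), a 1.5-fold higher value with a 95% interval of 1.18-fold to 1.91-fold, and it did not pass over all items (limma adjusted p = 0.458). This gene had 1 probe. Acot1, the cytosolic enzyme for long chains, was at 5.14, 5.16 and 5.12 in vehicle and at 5.07, 4.84 and 5.06 in phenolphthalein. The groups did not overlap, with phenolphthalein replicate 2 lowest, and differed by -0.15 (SE 0.07, limma adjusted p = 0.592). Without phenolphthalein replicate 2 the difference was -0.08.

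Acot2, the mitochondrial paralog of Acot1, was at 3.84, 4.05 and 3.92 in vehicle and at 4.10, 3.64 and 3.94 in phenolphthalein. Its groups overlapped and differed by -0.04 (SE 0.12, limma adjusted p = 0.937), while its second probe gave -0.18. Acot1 and Acot2 are similar in sequence, and signal shared between their probes was not tested. The peroxisomal thioesterase Acot8 ranged from 4.89 to 5.19 with overlapping groups.

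The remaining genes respond to PPARs or handle fuel. Ucp2, an uncoupling protein family member of the inner mitochondrial membrane, was at -0.38, -0.39 and -0.46 in vehicle and at -0.80, -0.72 and -0.63 in phenolphthalein. Every treated animal was below every vehicle animal, by a gap larger than the spread within either group. The difference was -0.31 (SE 0.08), or 0.807-fold with a 95% interval of 0.711-fold to 0.917-fold, and it did not pass over all items (limma adjusted p = 0.458). Leukocytes also express Ucp2. The leukocyte markers, given above, had lower values in the same arrays in 13 of 14 genes, 10 of them at an unadjusted p under 0.05, with a median difference of -0.48 (limma; 0 of 14 passed the adjusted threshold). Their part in the Ucp2 value was not tested.

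**Figure D3:**
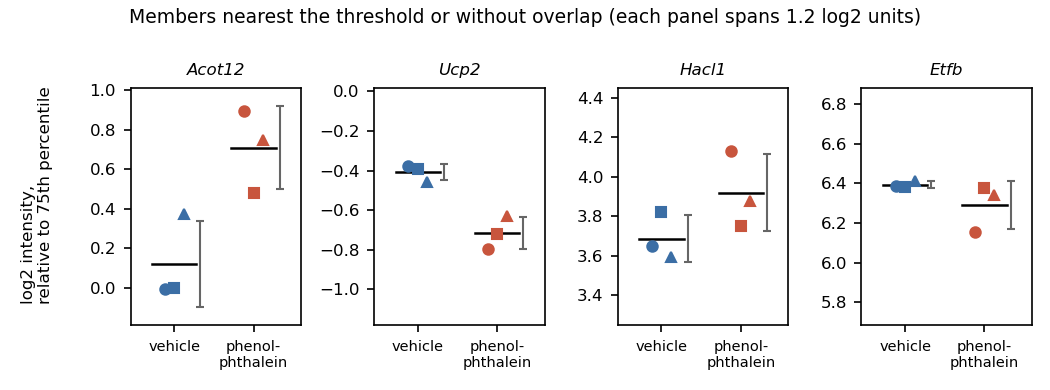
Values in each animal (log2 relative to the 75th percentile of the array, y axis, each panel spanning 1.2 log2 units) of Acot12, Ucp2, Hacl1 and Etfb. Circles, squares and triangles are replicates 1, 2 and 3, lines are group means and bars are SDs (n = 3). Acot12 and Ucp2 show a gap between the groups, Etfb a far smaller one, and the groups of Hacl1 overlap.

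Pdk4, the kinase that shuts pyruvate out of the citric acid cycle when fat is burned, was at -3.72, -2.76 and -3.58 in vehicle and at -2.86, -2.91 and -2.88 in phenolphthalein. The treated animals were nearly identical, and of the vehicle animals replicate 2 lay above them and the other two below. The difference was 0.47 (SE 0.25, limma adjusted p = 0.633). Without vehicle replicate 2 it was 0.77 (limma adjusted p = 0.689), and without vehicle replicate 1 it was 0.29. Angptl4, a secreted inhibitor of lipoprotein lipase, was at 2.84, 3.85 and 3.25 in vehicle and at 3.47, 3.05 and 3.21 in phenolphthalein. Vehicle animals were again more scattered than treated ones, and the second probe showed the same order of the vehicle animals, at -0.20, 0.81 and 0.24. The difference was -0.07 (SE 0.25, limma adjusted p = 0.953), and 0.20 without vehicle replicate 2.

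Plin2, which coats lipid droplets, was at 4.32, 4.58 and 4.43 in vehicle and at 4.64, 4.48 and 4.55 in phenolphthalein. Vehicle replicate 2 lay among the treated animals, and the difference was 0.12 (SE 0.08, limma adjusted p = 0.709). It was 0.05 without vehicle replicate 1, 0.18 without vehicle replicate 2 and 0.07 without phenolphthalein replicate 1. Vnn1, a pantetheinase and PPARalpha target, was at 4.26, 4.39 and 4.26 in vehicle and at 4.18, 4.18 and 4.33 in phenolphthalein, with overlap and a difference of -0.07 (95% interval -0.23 to 0.08).

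Variation between animals was uneven across the list. The pooled SD within groups was under 0.25 for 34 of the 42 genes. It was highest for Acsm3, at 1.2, followed by Acox2 at 0.66, Ppara at 0.41, Angptl4 at 0.39 and Pdk4 at 0.37. Acsm3, a medium-chain acyl-CoA synthetase, was at 2.94, 3.00 and 4.93 in vehicle and at 2.51, 4.89 and 4.43 in phenolphthalein. The lower 3 values thus lay at or below 3.00 and the upper 3 at or above 4.43, with animals of both groups on each side and none in between. Its difference of 0.32 had a 95% interval from -1.44 to 2.08 (limma adjusted p = 0.921), so these arrays say little about a treatment effect on this gene.

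The animals did not rank alike across the members. Within the vehicle group, replicate 2 had the highest value of Pdk4, Angptl4, Cpt1a, Ehhadh, Pex11a and Plin2, genes picked from several roles after their values were seen, while Ucp2 was highest in replicate 1 and Ppara in replicate 3. The list of 21 other PPAR-responsive genes was mixed. By a stricter rule, vehicle replicate 2 held the highest of all 6 values in 2 of them, with a median deviation of -0.02. Cyp4a1 (5.47) and Cyp4a8 (8.41) were highest in it, while Cyp4a2, Cyp4a3 and Me1 had their lowest vehicle value in it. Probes of a gene could differ here. The second probe of Cyp4a2 was highest in this animal (7.25), and the other probes of Cyp4a8 had their lowest vehicle value in it. Over all 6 animals, vehicle replicate 2 held the highest value of 10 members and the lowest of 1. Among all items it held the highest value of 13.5% and the lowest of 17.2%. Phenolphthalein replicate 2 held the lowest value of 15 members (35.7%, against 16.6% of all items). Phenolphthalein replicate 1 held the highest of 14 (33.3%, against 21.1%) and the lowest of 7 (16.7%, against 26.5%). Over all items, phenolphthalein replicate 1 was the array most often highest and also most often lowest. The median deviation of the members from each gene's own mean was -0.01, 0.07 and -0.03 in the vehicle arrays and 0.07, -0.07 and 0.05 in the phenolphthalein arrays, so the arrays of the 2 groups intermixed. Liver markers had their highest median deviation in phenolphthalein replicate 2 (0.93), where the members were lowest. The next highest was in vehicle replicate 1 (0.48), where the members lay at -0.01, and by summed level vehicle replicate 1 was above phenolphthalein replicate 2 (115 against 110.0). That sum is weighted to the brightest marker, Cyp2e1, at 5.95 in vehicle replicate 1 and 5.57 in phenolphthalein replicate 2. Of the 18 markers, 11 had their highest value in phenolphthalein replicate 2 and 4 in vehicle replicate 1. The part of the liver markers was not tested.

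**Figure D4:**
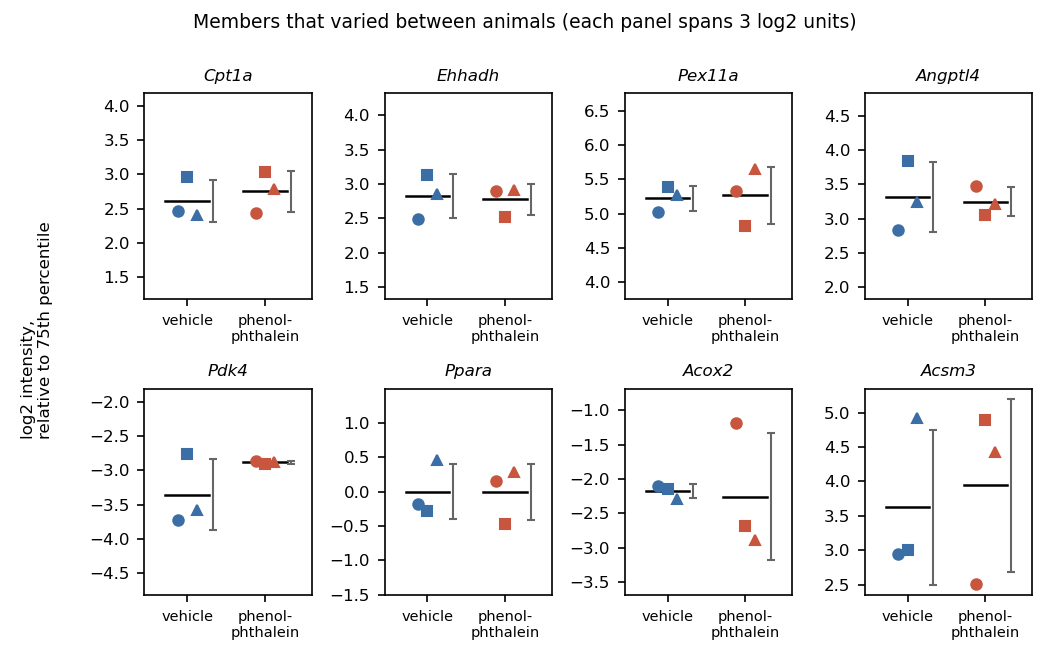
Values in each animal (log2 relative to the 75th percentile of the array, y axis, each panel spanning 3 log2 units) of 8 genes with wide spread. Circles, squares and triangles are replicates 1, 2 and 3, lines are group means and bars are SDs (n = 3). Acsm3 falls into a low and a high set with animals of both groups in each, and vehicle replicate 2 is the highest vehicle animal in Cpt1a, Ehhadh, Pex11a, Angptl4 and Pdk4.

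Genes around the pathway that are not on the list gave the same count of 0 past the threshold in each of 6 lists. Among other peroxisomal genes 17 of 30 tested had higher values, with a median difference of 0.01, and 2 reached an unadjusted p under 0.05, both higher. Slc27a2, a very long-chain acyl-CoA synthetase and fatty acid transporter, was at 6.97, 7.08 and 6.96 in vehicle and at 7.12, 7.25 and 7.34 in phenolphthalein, without overlap, and its second probe gave 0.25. The difference was 0.23 (SE 0.07) and did not pass over all items (limma adjusted p = 0.477).

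Among the regulators 14 of 21 tested had higher values, with a median of 0.03. Rxrg, a retinoid X receptor that pairs with PPARs, was at 2.67, 2.64 and 2.97 in vehicle and at 2.07, 1.54 and 2.32 in phenolphthalein. Every treated animal was lower, all 3 probes gave differences of -0.74 to -0.78, and the test did not pass (SE 0.20, limma adjusted p = 0.458). Acacb, the carboxylase whose product malonyl-CoA inhibits the Cpt1 step, was higher by 0.39 (SE 0.14, limma adjusted p = 0.531), and its second probe gave 0.55. With normexp background correction the difference was 0.22.

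In the list of other PPAR-responsive genes 10 of 21 had higher values. Pnpla2, the lipase that opens triglyceride breakdown in lipid droplets, was at 1.59, 1.61 and 1.65 in vehicle and at 2.06, 1.96 and 2.02 in phenolphthalein. Its groups stood far apart relative to their spread, with a difference of 0.40 (SE 0.06) and 0.35 by its second probe. It still missed the threshold over all items (limma adjusted p = 0.389).

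Fatty acid uptake and binding genes had 5 higher and 5 lower values, with Lpl, lipoprotein lipase, at 0.36 (SE 0.13) and the transporter Slc27a4 at -0.21 (SE 0.13), or -0.08 without phenolphthalein replicate 1. The second probe gave a smaller difference in both, 0.19 for Lpl and -0.03 for Slc27a4. Ketone body enzymes had 4 higher and 1 lower, with Acat1 at 0.08 and Oxct1 at -0.08. Leaving out vehicle replicate 3 gave 0.04 for Acat1, and leaving out vehicle replicate 2 gave -0.03 for Oxct1. Other mitochondrial acyl-CoA genes had 8 higher and 15 lower, with the synthetase Acsl3 at 0.24 and the dehydrogenase Acadsb at 0.27. The limma adjusted p values of these 6 genes lay between 0.530 and 0.746.

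PPARs bind a direct repeat of AGGTCA with 1 base between the copies, AGGTCANAGGTCA. The 250 bases before the start of each gene were read from RefSeq (GRCr8) for the 38 members with an entry. None of them held the full repeat on either strand, and 0.0508% of all 33469 promoters did. Only exact copies were counted, and repeats with a mismatch were not searched for. With so low a share over all promoters, a count of 0 among 38 says little. The single motif AGGTCA was found in 7 members (18.4%, against 14.1% of all promoters): Acadvl, Acot12, Acot8, Acsm3, Amacr, Echs1 and Eci1. The windows around it are shown for Acot12, the member with the smallest p, for Acsm3, the member with the widest spread, and for Acot8, a member of the same thioesterase family as Acot12 whose groups overlapped. Each is read 5′ to 3′ along the strand of the gene, and capitals mark AGGTCA or its reverse complement TGACCT.
Acot12, chr2:24721827-24721886, plus strand: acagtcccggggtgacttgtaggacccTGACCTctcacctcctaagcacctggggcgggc
Acsm3, chr1:183564576-183564635, plus strand: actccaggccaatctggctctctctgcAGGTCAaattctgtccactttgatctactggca
Acot8, chr3:173962189-173962230, minus strand: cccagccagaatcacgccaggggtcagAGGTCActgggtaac
These matches are letters in a window and were not measured as binding sites. In the Acot8 window the letters gggtcag stand just before the capitals, and in the Acot12 window the letters ctcacct stand just after them. Each is close to the full repeat, read on one strand or the other, but not an exact copy of it. A window of Acadvl, not shown here, held such a near copy too. The motif was present both in a gene whose groups did not overlap (Acot12) and in genes whose groups did (Acot8, Acsm3). These genes were picked by their values, and a link between the motif and the differences was not tested.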

How the data were processed

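Renal cortex RNA of 6 rats was hybridised to 1 array each. Per the file headers, Agilent Feature Extraction 10.7.1.1 gave the spot intensity (the submitters' processing notes name version 10.7), background-subtracted and detrended within arrays. Between arrays the authors' deposited intensities were not normalized. The deposited value table holds a linear ratio, of unstated origin, whose columns equal the intensity over the array's 75th percentile (column medians 0.102 to 0.106). Each column matched a different replicate's scanner file of the same group, so it served only as an alternative.

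Here the log2 intensity minus that of each array's 75th percentile was analysed. Outlier spots (2 to 14 per array) were set to missing and no spot was saturated. Probes were named through RefSeq accessions (GRCr8), which gave 27460 of 61657 probes 1 symbol. The probe with the highest mean stood for a gene, if well above background on at least 3 arrays. The 42 genes had 65 probes, and 15 genes had over 1; in 3 of those the probes differed in sign. Groups were compared with limma 3.58.1 (R 4.3.3; lmFit, eBayes with an intensity trend, two-sided, Benjamini-Hochberg over all items, threshold 0.05), which was tested on simulated data. The number of arrays, 3 per group, limits precision. The labels describe 3 animals per group, and which animal of a group each replicate number denotes is not settled, given the mismatch of table and scanner files; numbers follow the scanner files.

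Members, lists and tests were chosen with earlier results of these data known. Values are given for 17 fixed genes and the 5 with the smallest p in each direction (22 genes in all) and, around the pathway, for the 2 with the smallest p per list, some of which are not reported here. Alternatives were other background correction, normalization, filter, probe choice, variance model, slide and replicate blocks, and leaving out each array. Marker lists for adrenal cortex, distal tubule, collecting duct and glomerulus summed to 0.993 to 2.29, 471 to 522, 163 to 268 and 32.4 to 42.8 over the arrays.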

Additional observations from a re-analysis of the deposited data

How the results depend on the processing

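The count of fatty acid oxidation genes past the threshold was 0 higher and 0 lower under all 17 alternatives (limma), the replicate block (0 and 0) included. At an unadjusted p under 0.05 (limma) it was 1 to 2 higher and 1 lower with all arrays. With 1 array left out it was 1 to 3 in each direction. Of all items, both directions together, 2328 to 3637 reached an unadjusted p under 0.05 with all arrays and 2160 to 3165 with 1 left out. In the main fit 3054 of 34417 items did. Acot12 and Ucp2 kept their direction throughout (0.49 to 0.71 and -0.35 to -0.24, adjusted p 0.356 to 0.747 and 0.419 to 0.747). Over all items, leaving out 1 array gave 0 to 1 higher and 0 to 1 lower, with 1 lower without vehicle replicate 1, 1 of each without phenolphthalein replicate 2 and 1 higher without phenolphthalein replicate 3. The median of the 42 genes was -0.01 to 0.01 with all arrays and -0.04 to 0.05 without 1. The split of 20 higher and 22 lower became 26 and 16 without vehicle replicate 2, 29 and 13 without phenolphthalein replicate 2, and 15 and 27 without phenolphthalein replicate 1. The normexp correction used the median spot signal, the mean being no column of the files. No pairing by replicate number was seen: deviations from group means correlated at -0.0063, -0.015 and 0.025 for shared numbers. Replicate 1 of vehicle correlated most with replicate 2 of phenolphthalein. With 3 arrays per group and the numbering unsettled, these values cannot show whether the samples were paired. The replicate block called 0 items higher and 0 lower.

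Under the alternatives, 629 values of 37 named genes were computed. With all arrays 403 kept direction and side of the threshold and 4 changed sign: Ppara at 0.0083 and Hadha at -0.055 with normexp, Acsl1 at 0.0094 with quantile normalization, and Ppara at 0.015 with the median of its probes. With 1 array left out 195 kept both and 27 changed sign. None of these genes was called, and the cause was not tested. Leaving out 1 array gave a difference of -0.16 to 0.22 for Ppara, -0.087 to 0.017 for Acsl1, -0.00033 to 0.32 for Cpt1a, -0.10 to 0.0095 for Cpt2, -0.048 to 0.054 for Acadm, -0.097 to 0.012 for Acadvl, -0.044 to 0.075 for Hadha, -0.050 to 0.079 for Phyh, -0.22 to 0.10 for Ehhadh, -0.14 to 0.084 for Acot2, -0.30 to 0.20 for Angptl4, -0.15 to 1.04 for Acsm3, -0.61 to 0.24 for Acox2 and -0.15 to 0.26 for Pex11a.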
